A study of Mus musculus with 19 samples.

Results

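Suprarenal aortas (SRAs) of mice were read for 9 genes that carry or restrain the interferon signal: Stat2, Irf1, Irf7, Irf8, Irf9, Socs1, Ifngr1, Ifngr2 and Ifnar1. The members were chosen by symbol with earlier results of these data known, and all 9 were found among the 20408 genes of the RNA-Seq table. The 19 libraries came from male ApoE-/- mice that carried SMA-CreERT2, a tamoxifen-inducible Cre recombinase driven by the smooth muscle actin promoter. The Ikbkb gene was floxed in IKKβ-/- mice and intact in their IKKβ+/+ counterparts, and both genotypes received tamoxifen at 8 weeks of age, so that Cre, tamoxifen and the loss of ApoE were shared by all 4 groups. The deletion was aimed at vascular smooth muscle cells (VSMCs), and the other cells of the wall kept the gene. Mice were infused for 24 h with saline (5 IKKβ+/+ and 4 IKKβ-/- mice) or with angiotensin II (Ang II; 5 and 5 mice), at a dose given in the labels as 500 to 1000 ng/min/kg and in the methods as the upper of these values. Each library was 1 mouse. The mouse numbers run in separate blocks per group and no batch is given, so a batch cannot be told apart from the groups.

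Interferons signal through pairs of receptor chains. Type I interferons bind IFNAR1 and IFNAR2, and interferon-γ binds IFNGR1 and IFNGR2. Janus kinases on these chains phosphorylate STAT proteins: STAT2 and IRF9 are parts of the complex ISGF3, which binds interferon-stimulated response elements (ISREs), and STAT dimers bind gamma-activated sequences (GAS). IRF1 and IRF7 are transcription factors that are themselves induced by interferon and pass the signal on. IRF1 also responds to NF-κB, the factor released by IKKβ. IRF8 is a factor of myeloid cells, and SOCS1 is an inhibitor that blocks Janus kinases.

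The sequence before the transcription start is shown for the members that passed the test in a comparison of 2 groups, because the letters bound by STAT, ISGF3 and NF-κB can be looked up there. The sequences are from RefSeq (GRCm38.p6), are written 5′ to 3′ on the strand of the gene, and end at the base before the annotated start. For Irf7, 193 bases are shown, because the rest of the window lies inside the Gencode gene. Capitals mark matches to 3 motifs searched on both strands: the GAS core TTCNNNGAA, the ISRE core GAAANNGAA and the NF-κB consensus.
Irf1, chr11:53769764-53770013, plus strand: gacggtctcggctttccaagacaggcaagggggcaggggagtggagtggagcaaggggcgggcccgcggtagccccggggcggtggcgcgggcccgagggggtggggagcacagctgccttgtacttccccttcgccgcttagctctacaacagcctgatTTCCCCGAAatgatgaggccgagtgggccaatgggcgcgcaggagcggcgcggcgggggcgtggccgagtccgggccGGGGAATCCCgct
Irf7, chr7:141266482-141266674, minus strand: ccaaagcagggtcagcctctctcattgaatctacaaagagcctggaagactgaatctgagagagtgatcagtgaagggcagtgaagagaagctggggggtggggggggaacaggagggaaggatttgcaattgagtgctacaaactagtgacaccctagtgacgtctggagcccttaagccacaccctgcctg
Ifngr2, chr16:91546809-91547058, plus strand: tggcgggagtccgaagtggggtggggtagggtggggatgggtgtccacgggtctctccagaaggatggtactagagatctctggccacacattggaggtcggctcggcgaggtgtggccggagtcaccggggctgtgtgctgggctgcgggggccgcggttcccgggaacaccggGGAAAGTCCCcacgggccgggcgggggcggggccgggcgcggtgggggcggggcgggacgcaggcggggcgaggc
Ifnar1, chr16:91484965-91485214, plus strand: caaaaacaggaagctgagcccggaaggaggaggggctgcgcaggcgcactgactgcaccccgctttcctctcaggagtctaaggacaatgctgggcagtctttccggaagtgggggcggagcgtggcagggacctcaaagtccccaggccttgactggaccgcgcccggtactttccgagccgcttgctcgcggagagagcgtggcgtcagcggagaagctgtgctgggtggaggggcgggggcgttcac
The Irf1 promoter held a GAS match, TTCCCCGAA, that began 90 bases before the start, and an NF-κB match, GGGGAATCCC, that began 13 bases before it. The Ifngr2 promoter held an NF-κB match on the opposite strand, read here as GGAAAGTCCC, 75 bases before the start. No match was found in the 250 bases before the start of Irf7 and Ifnar1. Among the other members, Irf8 held GAS matches 171 and 153 bases before its start (TTCTCGGAA and TTCAGAGAA), Socs1 held a pair of overlapping ISRE matches that began 83 and 77 bases before it (GAAAGAGAA and GAAACCGAA), and Stat2 held an ISRE match at 221 bases (TTCAGTTTC, on the opposite strand). The windows of Irf9 and Ifngr1, and the second windows of Irf1 and Irf8, held none. All 9 members were matched to the promoter table, with 12 windows in all. Among all 32851 windows of 250 bases, 7.02% held the GAS core, 7.13% the ISRE core and 3.9% the NF-κB consensus. These matches are letters only, and binding was not measured.

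Reads on genes numbered between 11382573 and 19906694 per mouse. Values are normalized counts, the reads of a mouse divided by its DESeq2 size factor. The test took the 14845 genes that reached 10 normalized counts in 4 or more mice, and all 9 members were among them. Ikbkb, the targeted gene, had 533 ± 78.9 normalized counts (SD, n = 9) in IKKβ-/- and 699.7 ± 66.8 (SD, n = 10) in IKKβ+/+ mice, and 8 of the 9 IKKβ-/- values were under every IKKβ+/+ value. The tissue carried the markers of a whole vessel wall: Acta2, an actin of smooth muscle, had between 113336 and 301107 normalized counts, Dcn, a fibroblast proteoglycan, between 12905 and 64618, and Pecam1, an endothelial adhesion molecule, between 3696 and 16679. The 12 T and NK cell markers summed to at most 165 normalized counts in a mouse, with at most 6.65 of Cd3e and, at the highest, 49.0 of Gzma. Dbh and Th, enzymes of catecholamine synthesis, stood apart in 2 Ang II-treated IKKβ+/+ mice, with 1674 and 825 normalized counts in X2356 and 214 and 98.5 in X2350. They had 21.3 and 7.99 in X2370, a saline-infused IKKβ+/+ mouse, and at most 4.23 and 3.17 in any other. Without X2350 and X2356, 2 members (Irf1 and Irf7) were called with Ang II in IKKβ+/+ mice in place of 3. In such bulk samples, fewer cells of a type and less RNA per cell cannot be told apart.

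Levels were compared between members per kilobase of the principal Gencode transcript, in saline-infused IKKβ+/+ mice. The receptors of interferon-γ led the order. Ifngr1 had 880.5 ± 79.3 normalized counts per kb (SD, n = 5) and Ifngr2 had 450.5 ± 30.7, at the 94.1 and 87.0 percentiles of the genes tested that had such a length. Irf1 (249 ± 34.6) and Ifnar1 (211 ± 12.8) followed, and their mice overlapped. Irf9 had 155 ± 14.2 normalized counts per kb, below every mouse for Ifnar1. Stat2 (95.4 ± 15.2) and Irf7 (70.8 ± 19.2) overlapped. Irf8 (23.2 ± 2.26) and Socs1 (15.1 ± 2.22) were the lowest of the 9, did not overlap with each other, and stood at the 19.4 and 14.3 percentiles. The receptor chains were thus more abundant per kb than ISGF3 components, while the myeloid factor and the inhibitor were the scarcest.

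**Figure D1:**
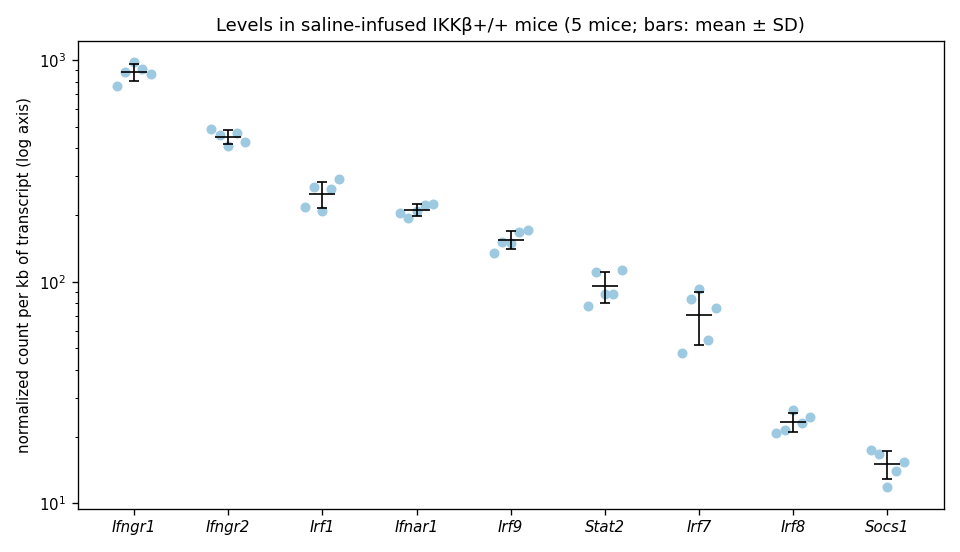
Normalized counts per kb of transcript (log axis) of the 9 genes in saline-infused IKKβ+/+ mice. Points are the 5 mice and bars the mean ± SD. Ifngr1 stands highest, at 880.5 on average, and Socs1 lowest, at 15.1.

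The first question is how Ang II changed these genes in mice with intact IKKβ. Of the 9 members, 3 were lower in Ang II-treated than in saline-infused IKKβ+/+ mice (33.3%), and none was higher. The background is that 8.66% of the genes tested passed in either direction and 4.33% passed as lower. Because the members were chosen with earlier results of these data known, this comparison is a description and no test of the set. Passing means an adjusted p below 0.1 together with more than a 1.2-fold change. The 3 were the transcription factors Irf1 and Irf7 and the receptor chain Ifngr2. The fitted difference was below 0 for all 9, as for 49.3% of all genes tested, and the median log2 fold change was -0.37, beside 0.01 over all genes tested. Groups did not overlap for 4 members (Irf1, Irf7, Irf9 and Ifngr2), all lower with Ang II, where 4.47% of all genes tested did so in that direction.

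Irf1, the factor that drives many interferon-γ targets, had 465, 569, 444, 559 and 618 normalized counts in the saline-infused IKKβ+/+ mice. In the Ang II-treated IKKβ+/+ mice it had 228, 305, 355, 179 and 237. Every treated mouse lay below every saline-infused mouse. The mean fell from 531 ± 74.0 to 261 ± 69.5 (SD, n = 5 and 5), and the log2 fold change was -1.05 ± 0.19 (SE; 95% interval -1.46 to -0.65; limma, adjusted p = 0.0066). Irf1 in IKKβ-/- mice had 371, 494, 371 and 301 normalized counts with saline and 284, 243, 397, 448 and 429 with Ang II. These groups overlapped widely, and their means were 384 ± 80.3 and 360.2 ± 91.5. The log2 fold change there was -0.11 ± 0.21 (95% interval -0.54 to 0.32; adjusted p = 0.83). Both IKKβ-/- means lay between the means of the IKKβ+/+ groups.

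Irf7, which amplifies the type I interferon response, had 91.2, 159.6, 178, 104 and 145 normalized counts in saline-infused IKKβ+/+ mice. With Ang II it had 22.5, 73.6, 85.6, 52.5 and 39.8. The groups did not overlap, although the highest treated mouse came close to the lowest saline-infused one. The log2 fold change was -1.39 ± 0.37 (95% interval -2.15 to -0.62; adjusted p = 0.038), the largest fall among the 9 members. Irf7 in IKKβ-/- mice had 183, 106, 169 and 64.6 normalized counts with saline and 61.0, 42.9, 130.0, 97.9 and 114 with Ang II. These groups overlapped, and the log2 fold change was -0.55 ± 0.39 (95% interval -1.36 to 0.27; adjusted p = 0.51).

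Ifngr2, the signalling chain of the interferon-γ receptor, had 1808, 1694, 1524, 1737 and 1589 normalized counts in saline-infused IKKβ+/+ mice and 1194, 1364, 1208, 1451 and 1219.6 with Ang II. The IKKβ-/- mice had 1635, 1697, 1585 and 1538 with saline and 1072, 1408, 1049, 1322 and 1536 with Ang II. The treated mice lay below the saline-infused mice in both genotypes, by a narrow margin in IKKβ-/- mice. The log2 fold change was -0.38 ± 0.10 (adjusted p = 0.042) in IKKβ+/+ and -0.35 ± 0.11 (adjusted p = 0.086) in IKKβ-/- mice. Ifngr2 was the only member of the 9 to pass in IKKβ-/- mice, where 5.29% of all genes tested passed, 2.69% as lower, and where 2.88% of all genes had non-overlapping groups that were lower. The ligand-binding chain, Ifngr1, ranged from 1612 to 2072 normalized counts with saline and from 1295 to 1775 with Ang II in IKKβ+/+ mice, and from 1221 to 1948 over both IKKβ-/- groups. It did not pass (log2 fold change -0.24 ± 0.12, adjusted p = 0.29, in IKKβ+/+ mice and 0.13 ± 0.13, adjusted p = 0.66, in IKKβ-/- mice).

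**Figure D2:**
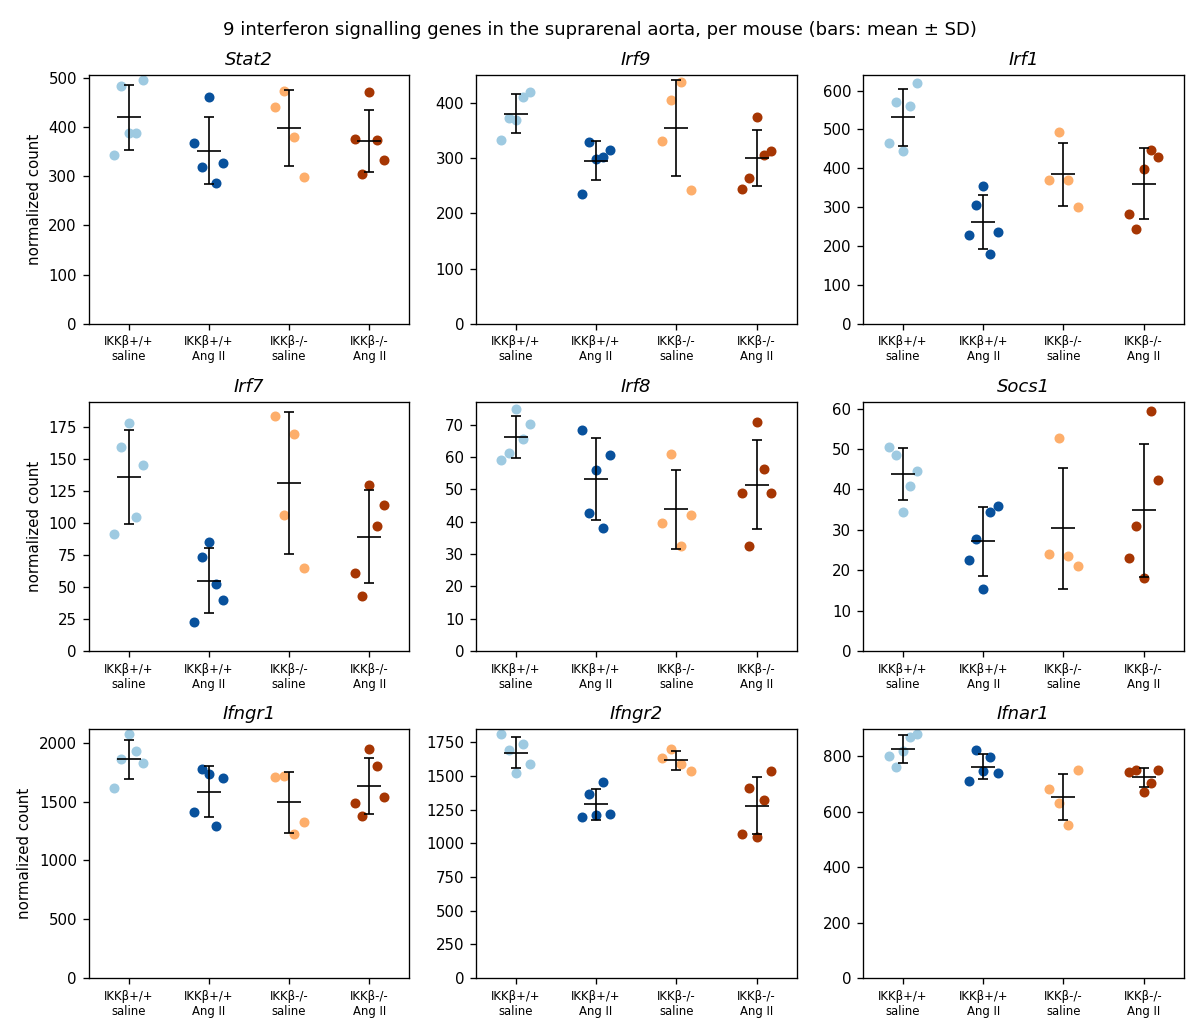
Normalized counts of the 9 genes in each of the 19 mice, with axes from 0. Points are mice and bars the mean ± SD of a group. With Ang II, Irf1, Irf7, Irf9 and Ifngr2 lie below the saline-infused IKKβ+/+ mice without overlap, and in IKKβ-/- mice only Ifngr2 does.

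The components of ISGF3 did not pass with Ang II in either genotype in the main fit. Irf9, its DNA-binding part, had 333, 372, 369, 411 and 419 normalized counts in saline-infused IKKβ+/+ mice and 236, 329, 298, 302 and 314 with Ang II. The groups did not overlap, but the log2 fold change of -0.37 ± 0.15 did not pass (adjusted p = 0.17), except when the fit held only these groups (adjusted p = 0.069). In IKKβ-/- mice Irf9 had 331, 406, 438 and 243 with saline and 245, 264, 375, 305 and 312 with Ang II, and the groups overlapped (log2 fold change -0.22 ± 0.16). Irf9 passed there only with a smooth muscle marker score of each mouse as a covariate (-0.38, adjusted p = 0.086). Stat2 ranged from 286 to 495 normalized counts over all 19 mice and passed in no comparison (log2 fold change -0.26 ± 0.16, adjusted p = 0.37, in IKKβ+/+ mice). Irf8 (32.4 to 74.9 normalized counts) and Socs1 (15.4 to 59.4) were low. Socs1 had 43.8 ± 6.44 normalized counts with saline and 27.2 ± 8.49 with Ang II in IKKβ+/+ mice (log2 fold change -0.72, 95% interval -1.40 to -0.04, adjusted p = 0.22).

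**Figure D3:**
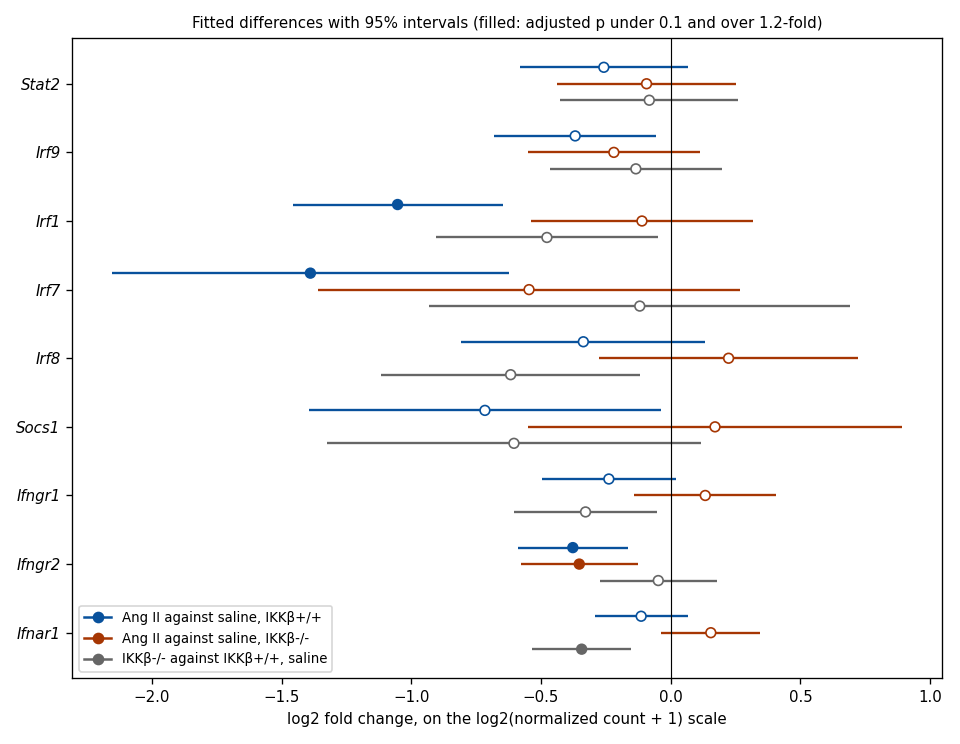
Fitted log2 fold changes (x axis) of the 9 genes in 3 comparisons, with 95% intervals from limma. Filled points passed the test. The intervals of Irf1, Irf7 and Ifngr2 with Ang II in IKKβ+/+ mice lie below 0, and those of Irf1 and Irf7 in IKKβ-/- mice cross it.

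Whether the response to Ang II differed between genotypes was tested as the difference between the fitted effects. No member passed it with limma or edgeR (0.0% of all genes tested passed with limma). Of the 9 members, 2 had an unadjusted p under 0.05 (limma), as did 1654 of all 14845 genes tested. The difference was above 0 for all 9 members (below 0 for 50.2% of all genes tested), with a median of 0.37 beside 0.00 over all genes tested. It was largest for Irf1, at 0.94 ± 0.28 on the log2 scale (95% interval 0.35 to 1.53; unadjusted p = 0.0033, adjusted p = 0.27). DESeq2 on the recovered reads passed Irf1 alone of the 9 members (log2 difference 0.93, adjusted p = 0.093). It also passed 4 of 7 adipocyte markers, 2 of 8 smooth muscle markers and 1 of 40 other pathway genes. Its share over all genes was not counted. For Ifngr2, the difference was 0.02 (95% interval -0.28 to 0.33), and for Irf7 it was 0.84 (95% interval -0.27 to 1.96). Averaged over both genotypes, 4 members were lower with Ang II (44.4%), where 12.7% of all genes passed and 7.05% passed as lower: Irf1 (log2 fold change -0.58, adjusted p = 0.014), Irf7 (-0.97, adjusted p = 0.029), Ifngr2 (-0.36, adjusted p = 0.0045) and Irf9 (-0.29, adjusted p = 0.099). The call of Irf9 was lost without any 1 of 15 mice, all but X2352, X2370, X2384 and X2409 (adjusted p between 0.11 and 0.20).

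The effect of genotype alone was read in saline-infused mice. Ifnar1, the type I interferon receptor chain that binds TYK2, was the only member of the 9 to pass, where 5.47% of all genes passed. It had 799, 759.8, 818, 869 and 880.7 normalized counts in IKKβ+/+ and 682, 631, 551 and 749 in IKKβ-/- mice. The groups did not overlap, as for 4.08% of all genes tested that were lower, and the log2 fold change was -0.34 ± 0.09 (95% interval -0.53 to -0.15; adjusted p = 0.059). Fits without mice X2370, X2373, X2376, X2378, X2403 or X2406 ended this call (adjusted p between 0.10 and 0.22). With Ang II, Ifnar1 had 709, 823, 745, 796 and 739.5 normalized counts in IKKβ+/+ and 742, 749, 670.9, 705 and 750.6 in IKKβ-/- mice, and these overlapped. All 9 fitted differences between genotypes with saline were below 0, as were those of 52.4% of all genes tested. The same saline-infused IKKβ+/+ mice enter this comparison, the Ang II effect in IKKβ+/+ mice and the difference of the Ang II effects. The one-sided counts of members in them are therefore not separate results. With saline, 4 members had an unadjusted p under 0.05 (limma), as did 2857 of all 14845 genes tested. Besides Ifnar1 these members were Irf1 (-0.48 ± 0.21, adjusted p = 0.21), Irf8 (-0.62 ± 0.24, adjusted p = 0.16) and Ifngr1 (-0.33 ± 0.13, adjusted p = 0.18). Irf1 passed in the fit of the saline-infused groups alone (adjusted p = 0.091), and Irf1 and Irf8 passed with array quality weights (adjusted p = 0.076 and 0.062). Between the Ang II-treated groups, no member passed with limma, edgeR or DESeq2, and no groups failed to overlap (0.128% of all genes passed, and 0.882% were lower without overlap). An unadjusted p under 0.05 (limma) was reached by 1 member (Irf1, 0.46 ± 0.19 higher in IKKβ-/- mice), and by 2118 of all 14845 genes tested. Averaged over treatments, no member passed by limma, edgeR or DESeq2 (7.24% of all genes did). Ifnar1 came nearest, with an adjusted p of 0.071 but a fold change under 1.2 (log2 -0.21 ± 0.06).

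Genes that these factors are known to drive were counted next. These lists too were chosen with earlier results of these data known, so their shares beside the background are a description and no test. The list of interferon-γ and IRF1 targets holds guanylate-binding proteins (Gbp), immunity-related GTPases, antigen-presentation genes and chemokines. Of its 37 genes tested, 26 were lower with Ang II in IKKβ+/+ mice (70.3%, where 4.33% of all genes tested were lower) and none was higher, and the median log2 fold change was -1.24 beside 0.01 over all genes. The same list had 9 lower (24.3%, beside 2.69%) and none higher in IKKβ-/- mice, at a median of -0.44, and 8 of the 9 were among the 26. Gbp4 fell from 325 ± 152 to 62.1 ± 28.5 normalized counts in IKKβ+/+ mice (log2 fold change -2.36 ± 0.44, adjusted p = 0.0072) and from 313 ± 164 to 79.6 ± 44.1 in IKKβ-/- mice (-2.07 ± 0.47, adjusted p = 0.022). Gbp5, which promotes inflammasome assembly, had log2 fold changes of -1.86 in IKKβ+/+ and -1.69 in IKKβ-/- mice (adjusted p = 0.012 and 0.028), and Tgtp2, a GTPase with the near-identical copy Tgtp1, had -1.88 and -1.62 (adjusted p = 0.012 and 0.034). Gbp8 passed in IKKβ+/+ mice, from 22.2 ± 15.7 to 4.0 ± 3.82 normalized counts (-2.44 ± 0.72, adjusted p = 0.057). In IKKβ-/- mice it had 18.9 ± 12.3 and 5.53 ± 4.02 (-1.74), and its difference between genotypes did not pass (adjusted p = 0.81). Ido1, an enzyme that degrades tryptophan, was the 1 gene that passed in IKKβ-/- mice alone (27.2 ± 15.5 to 4.87 ± 4.97 normalized counts, -2.42 ± 0.58, adjusted p = 0.027). In IKKβ+/+ mice Ido1 had 18.5 ± 10.5 and 9.18 ± 3.54 (-0.82), and its difference between genotypes did not pass (adjusted p = 0.46). Averaged over genotypes, 27 were lower (73.0%, beside 7.05%), among them Cxcl10, a chemokine for T cells (-2.03 ± 0.62, adjusted p = 0.045).

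The list of ISGF3 targets holds antiviral genes of the type I response. Both lists were drawn up by name, and which interferon acted on a gene in these mice was not tested. Of 43 tested, 19 were lower with Ang II in IKKβ+/+ mice (44.2%, beside 4.33%) and none was higher, and the median log2 fold change was -0.72. That number was 4 without X2350 or without X2358, 7 without X2378, 11 without X2373 and 0 with the smooth muscle score of each mouse as a covariate. None passed in IKKβ-/- mice, where 2.69% of all genes were lower, with limma or edgeR and 1 passed with DESeq2, at a median of -0.16. An unadjusted p under 0.05 (limma) was reached there by 6 of the 43, and by 2636 of all 14845 genes tested. Isg15, a ubiquitin-like modifier, fell from 63.4 ± 25.1 to 18.5 ± 9.39 normalized counts in IKKβ+/+ mice (-1.82 ± 0.37, adjusted p = 0.012) and had 55.7 ± 17.5 and 39.1 ± 11.9 in IKKβ-/- mice (-0.49). Its difference between genotypes did not pass (adjusted p = 0.38). Ifit3, which restrains viral RNA translation with its family, fell by 1.83 in IKKβ+/+ mice (adjusted p = 0.011), and Ifi44 fell by 1.86 (adjusted p = 0.038). Their log2 fold changes in IKKβ-/- mice were -1.11 and -1.20, and their differences between genotypes did not pass (adjusted p = 0.62 and 0.74). Ifit3b, a near-identical copy of Ifit3, fell by 1.69 in IKKβ+/+ mice (adjusted p = 0.060) and had -1.27 in IKKβ-/- mice, and reads may be shared between these copies. Averaged over genotypes, 17 were lower (39.5%), including Mx1, an antiviral GTPase (-1.73 ± 0.50, adjusted p = 0.037), and Ifi27 was higher (0.32 ± 0.10, adjusted p = 0.059). Of both lists, 1 gene passed between genotypes with saline, a share below the 5.47% of all genes tested and no result about the lists. It was Lgals3bp, a secreted galectin-binding glycoprotein, at 480 ± 91.1 normalized counts in IKKβ-/- and 871 ± 216 in IKKβ+/+ mice (-0.84 ± 0.20, adjusted p = 0.050). No target passed the test of the difference between genotypes with limma. The smallest adjusted p was 0.38 among interferon-γ and IRF1 targets and 0.27 among ISGF3 targets, and DESeq2 passed 1 ISGF3 target. An unadjusted p under 0.05 (limma) was reached by 3 of 37 and 4 of 43, and by 1654 of all 14845 genes tested. These counts are no result about the lists. The difference was above 0 for 34 of 37 and 39 of 43 genes (below 0 for 50.2% of all genes tested). It holds the same IKKβ+/+ mice as the Ang II effect in that genotype, so these counts are not separate from the falls there.

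**Figure D4:**
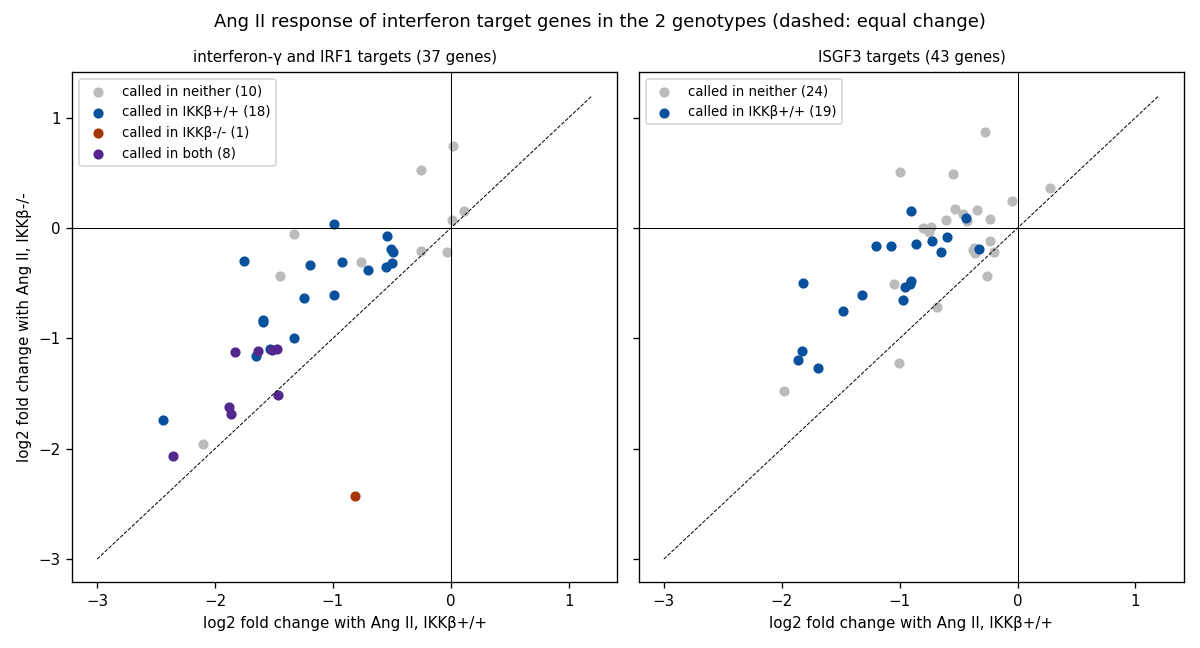
Log2 fold change with Ang II in IKKβ+/+ (x axis) and IKKβ-/- mice (y axis), each point being a gene. Left, 37 interferon-γ and IRF1 targets; right, 43 ISGF3 targets. Points above the dashed line fell less in IKKβ-/- mice, and 8 genes, all on the left, passed in both genotypes.

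The rest of the pathway was counted in the same way. Of 20 interferon genes listed, none was among the genes of the table. Of 40 other receptors, kinases, STAT and IRF proteins, inhibitors and sensors tested, 2 were lower with Ang II in IKKβ+/+ mice (5.0%, beside 4.33% of all genes) and none was higher (median log2 fold change -0.03). This share is near the background and is no result about the list. These were Usp18, an ISG15 protease that dampens IFNAR signalling (63.0 ± 24.3 to 25.1 ± 4.03 normalized counts; -1.22 ± 0.34, adjusted p = 0.046), and Irf2bpl (-0.44 ± 0.14, adjusted p = 0.084). In IKKβ-/- mice, Irf2bp2, a corepressor that binds IRF2, was higher (0.48 ± 0.12, adjusted p = 0.039) and Irf2bp1 lower (-0.42 ± 0.12, adjusted p = 0.074), or 2.5% lower beside 2.69%. With saline, 2 of the 40 were called (5.0%, beside 5.47%). Ptpn6, the phosphatase SHP-1 of blood cells, had 49.9 ± 24.3 normalized counts in IKKβ-/- and 98.6 ± 10.4 in IKKβ+/+ mice (-1.17 ± 0.33, adjusted p = 0.074), and Irf2bp2 was also lower (-0.39 ± 0.12, adjusted p = 0.096). Irf2bp2 was compared with the same saline-infused IKKβ-/- mice in both of its calls. Averaged over genotypes, 1 was higher with Ang II (Myd88, an adaptor of Toll-like receptors, 0.33 ± 0.09, adjusted p = 0.024) and 6 were lower (15.0%, beside 7.05%), among them Batf2, a partner of IRF1 (-1.29 ± 0.37, adjusted p = 0.033). Averaged over treatments, 2 were called (5.0%, beside 7.24%): Tlr9, a sensor of DNA, and Ptpn6 were lower in IKKβ-/- mice (-1.63 ± 0.50, adjusted p = 0.075, and -0.73 ± 0.23, adjusted p = 0.079).

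Markers of the cells of the wall moved with the same groups. The summed level of 8 smooth muscle markers ran from 464324 to 647800 normalized counts in Ang II-treated and from 334569 to 446231 in saline-infused IKKβ+/+ mice, without overlap, and 3 of the 8 were higher. Fibroblast markers ran from 148691 to 243963 and from 226134 to 351120, and endothelial markers from 11314 to 23092 and from 20854 to 35652, with 1 and 2 of 8 lower. The fitted difference was below 0 for 8 of 8 fibroblast and 6 of 8 endothelial markers, and above 0 for the other 2 endothelial ones. Of all 14845 genes tested, 643 were higher and 643 lower with Ang II in IKKβ+/+ mice, and 49.3% had a difference below 0. Among IKKβ-/- mice the smooth muscle, fibroblast and endothelial sums overlapped between treatments. Of these markers, 1 of 8 endothelial ones was higher with Ang II there and none was lower, where 385 of all 14845 genes tested were higher. Macrophage markers ran from 5969 to 8101 in saline-infused IKKβ-/- and from 7884 to 10377 in saline-infused IKKβ+/+ mice. Of the 12, 2 were lower in IKKβ-/- mice, as were 308 of all 14845 genes tested. In the same comparison, 8 of 8 fibroblast, 6 of 8 endothelial and 7 of 7 adipocyte markers had differences below 0. Those of 7 of 8 smooth muscle markers were above 0, and no marker of these 4 lists was called. Of all genes tested, 52.4% were below 0. Monocyte and neutrophil markers had medians of 230.0 (range 162 to 483) with saline and 494 (270 to 1000) with Ang II in IKKβ+/+ mice, and of 130 (98.0 to 213) and 382 (153 to 1163) in IKKβ-/- mice. Of their 7 genes tested, 1 was higher with Ang II in each genotype and 2 on average, and all 7 average differences were above 0. Of all 14845 genes tested, 643 were higher in IKKβ+/+ mice, 385 in IKKβ-/- mice and 840 on average. The average difference was below 0 for 49.2% of all genes tested. Dendritic cell markers ran from 301 to 1142, B cell markers from 5.36 to 130.2, T and NK cell markers from 5.56 to 165 and nerve and glia markers from 3491 to 8909 over all mice. Adipocyte markers ran from 2576 to 26464 in Ang II-treated and from 1059 to 4418 in saline-infused IKKβ-/- mice. Of 7 tested, 5 were higher with Ang II there, as were 385 of all 14845 genes tested.

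**Figure D5:**
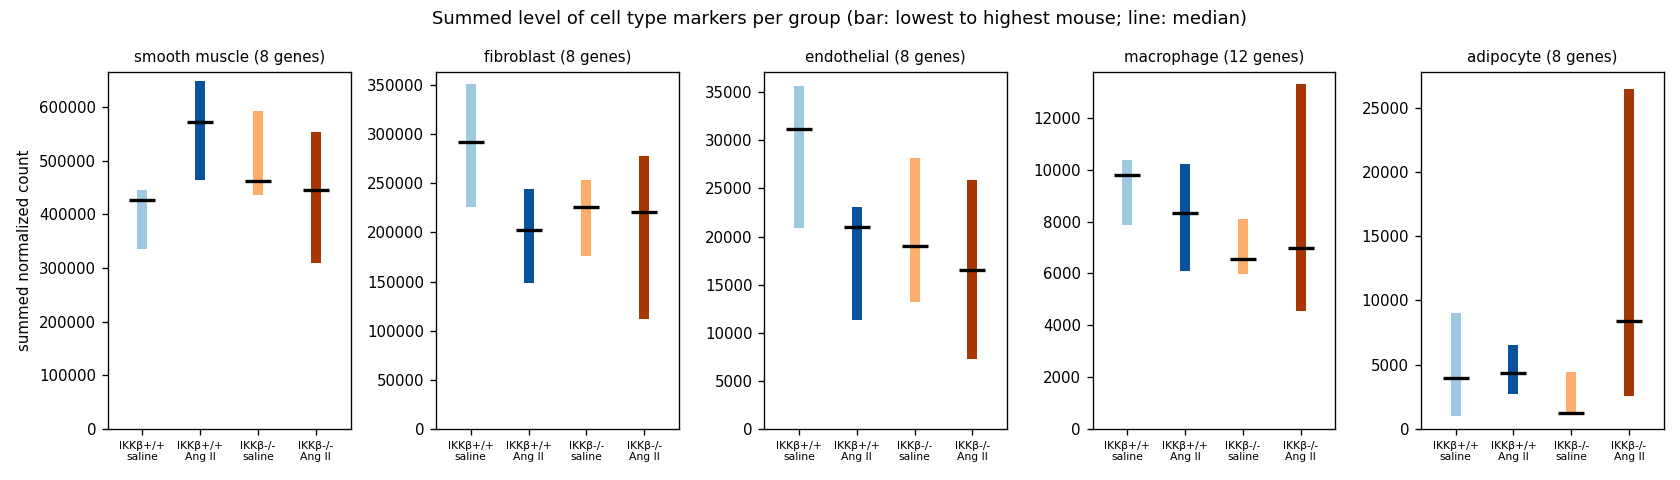
Summed normalized counts (y axis) of markers of 5 cell types in each group. Bars run from the lowest to the highest mouse and lines mark the median. Smooth muscle markers do not overlap between the IKKβ+/+ groups, and adipocyte markers reach 26464 in Ang II-treated IKKβ-/- mice.

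The fit was repeated with a marker score of each mouse as a covariate. With the smooth muscle score, the log2 fold change of Irf1 with Ang II in IKKβ+/+ mice was -0.64 (adjusted p = 0.11), that of Irf7 was -0.74 (adjusted p = 0.38) and that of Ifngr2 was -0.43 (adjusted p = 0.13), so that none of the 9 passed. With the fibroblast score, Irf1 alone passed, Irf7 being at -1.03 (adjusted p = 0.17) and Ifngr2 at -0.33 (adjusted p = 0.15). With the endothelial or macrophage score, Irf1 and Ifngr2 passed and Irf7 did not (-1.04 and -1.08, adjusted p = 0.15 and 0.12). With the monocyte and neutrophil score, Irf1 (-1.03, adjusted p = 0.020) and Irf7 (-1.34, adjusted p = 0.098) passed and Ifngr2 did not (-0.36, adjusted p = 0.11). With the smooth muscle score, the interferon-γ and IRF1 targets called in IKKβ+/+ mice numbered 0 and those called in IKKβ-/- mice 17, and the ISGF3 targets numbered 0 and 9. With the endothelial, fibroblast and macrophage scores, 14, 14 and 17 interferon-γ and IRF1 targets were called in IKKβ+/+ mice and 15, 13 and 16 in IKKβ-/- mice, and 4, 4 and 5 ISGF3 targets were called in IKKβ+/+ mice. With the adipocyte score, no interferon-γ and IRF1 target was called in IKKβ-/- mice, and Irf7 did not pass in the average over genotypes (-1.01, adjusted p = 0.13), as with the monocyte and neutrophil score (-0.91, adjusted p = 0.15). With that score, 20 and 6 interferon-γ and IRF1 targets and 8 and 0 ISGF3 targets were called in IKKβ+/+ and IKKβ-/- mice. Without mouse X2350, an Ang II-treated IKKβ+/+ mouse, Irf7 (-1.11, adjusted p = 0.12) and Ifngr2 (-0.35, adjusted p = 0.12) did not pass. Without X2350 and X2356 together, Irf1 was at -1.16 (adjusted p = 0.013), Irf7 at -1.28 (adjusted p = 0.083) and Ifngr2 at -0.31 (adjusted p = 0.18) in IKKβ+/+ mice, and 21 interferon-γ and IRF1 targets and 16 ISGF3 targets were called there. In IKKβ-/- mice, the call of Ifngr2 was lost with the smooth muscle, adipocyte or monocyte and neutrophil score (-0.33, -0.25 and -0.33; adjusted p = 0.11, 0.64 and 0.19), with edgeR (-0.33, adjusted p = 0.11), with no filter on low values (adjusted p = 0.11), with only the groups compared (-0.35, adjusted p = 0.27), without X2384 and X2385 together (-0.29, adjusted p = 0.27), and without any 1 of X2352, X2372, X2376, X2380, X2384, X2385, X2401, X2403 or X2406 (adjusted p between 0.10 and 0.20). The call of Ifnar1 with saline was lost with the fibroblast, macrophage or adipocyte score (-0.33, -0.37 and -0.35, beside -0.34 without a score; adjusted p = 0.14, 0.26 and 0.11). Score and treatment moved together in these mice, and what the scores share with the treatment was not tested.

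The likeness of patterns was described by the correlation of log2 values with every other gene tested over 19 mice, which share their groups, and is given with no test. The genes most like Irf7 were Gm4951, Mndal and Gbp7 (Pearson r = 0.90, 0.90 and 0.89, and 0.81, 0.82 and 0.80 after the group means were removed). Those most like Irf9 were Trim30d, Epsti1 and Slfn5 (r = 0.89, 0.88 and 0.86, and 0.89, 0.84 and 0.78 within groups), and those most like Stat2 were Oas1b, Dock6 and Gm20559 (r = 0.81, 0.80 and 0.78, and 0.84, 0.77 and 0.78 within groups). Irf1 was nearest to Arhgef15, Adh1 and H2-D1 (r = 0.88, 0.87 and 0.87, and 0.82, 0.85 and 0.74 within groups), and Irf8 to Sirpa, Fam43a and Ptk2b (r = 0.81, 0.78 and 0.78, and 0.69, 0.77 and 0.74 within groups). Among the receptors, Ifngr1 was nearest to Dll4, Cd55 and Trim30a (r = 0.89, 0.87 and 0.87), Ifngr2 to Snx4, Bmpr1a and Kcnab1 (r = 0.90, 0.87 and 0.87) and Ifnar1 to Ext2, Vangl1 and Adamts12 (r = 0.85, 0.84 and 0.81). Socs1 had the weakest neighbours, Fam184b, Zfp105 and Srd5a3 (r = 0.73, 0.66 and 0.65). Between members, Irf1 and Irf7 had r = 0.78 (0.59 within groups), Irf7 and Irf9 had 0.76 (0.68), and Ifngr1 and Ifngr2, which share a receptor, had 0.03 (-0.29).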

How the data were processed

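RNA of 19 mice was sequenced from the suprarenal aorta. From stranded poly(A) libraries read from a single end, the authors obtained counts per Gencode gene with Trimmomatic 0.35 for trimming, STAR 2.7.1a for alignment to GRCm38 and DESeq2 1.30.1 for normalization. The deposited signal is this normalized count. All values were whole multiples of 1 read within a tolerance of 0.02, so reads were recovered. Depth was 11382573 to 19906694 reads on genes per mouse, which limits the precision of low genes.

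Values were compared as log2(value + 1) in 1 limma 3.58.1 fit of 4 groups (R 4.3.3, trend, two-sided, Benjamini-Hochberg over 14845 genes; 5563 low genes left out). The pseudocount pulls folds of low genes toward 0. All 9 members are named, and from each gene list at most 4 genes per direction, by size of change among those that passed. Members, lists and tests were chosen with earlier results of these data known. The fit was tested on simulated data. Alternatives were a pseudocount of 4, no filter, only the groups compared, array quality weights, TMM scaling, edgeR 4.0.16 and DESeq2 1.42.0 on recovered reads, an adjusted p under 0.05, each mouse left out and, added after seeing the data, marker scores as covariates, mice X2384 and X2385 left out, and mice X2350 and X2356 left out. Protein sequences were not used here. Some genes of the lists are not reported here.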

Additional observations from a re-analysis of the deposited data

Results flagged for a closer look

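One value stood far from its group. Among the 4 saline-infused IKKβ-/- mice, Socs1 had 52.7 normalized counts in mouse X2403 and at most 24.1 in the others, a gap of 0.903 of the whole range of the group. A gap of this kind was looked for in 36 sets of values (9 genes in 4 groups), of which about 1 in 20 would be marked by chance, and 1 was.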

How the results depend on the processing

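Every call of a member kept its direction under every alternative run. The number of members called with Ang II in IKKβ+/+ mice was 3. It was 0 with the smooth muscle score as a covariate and 1 with the fibroblast score, 2 with the endothelial, macrophage or monocyte and neutrophil score and without X2350 and X2356, and ran from 1 (without X2350) to 3 when each mouse was left out. With Ang II in IKKβ-/- mice it was 1. It was 0 with no filter, with only the groups compared, with edgeR, at an adjusted p under 0.05, with the adipocyte or monocyte and neutrophil score and without X2384 and X2385, and ran from 0 to 1 when each mouse was left out. With the smooth muscle score it was 1, but the member called was Irf9 in place of Ifngr2. Between genotypes with saline it was 1. It was 2 with only the groups compared, 3 with array quality weights, 0 at an adjusted p under 0.05 and 0 with the fibroblast, macrophage or adipocyte score, and ran from 0 to 1 when each mouse was left out. For the difference of the Ang II effect it was 0, and 1 with DESeq2. Averaged over genotypes it was 4. It was 2 with the adipocyte or monocyte and neutrophil score, 3 with the other 4 scores, with no filter, with array quality weights, at an adjusted p under 0.05 and without X2350 and X2356, and ran from 3 to 4 when each mouse was left out. The cause was not tested. ISGF3 targets called in IKKβ+/+ mice ran from 4 (without X2350 or X2358) to 23 around 19, with 7 without X2378 and 11 without X2373, and interferon-γ and IRF1 targets from 18 to 27 around 26 there and from 2 (without X2401) to 12 around 9 in IKKβ-/- mice, where 2 were called with only the groups compared. At an adjusted p under 0.05, 10 ISGF3 targets were called in IKKβ+/+ mice, and 20 interferon-γ and IRF1 targets there and 4 in IKKβ-/- mice. With edgeR these numbers were 16, 26 and 6. TMM scaling changed no call of a member. No paired analysis was possible because the groups share no mouse numbers. Irf8 and Socs1 had under 80 normalized counts in every mouse.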
